A study of Homo sapiens with 6 samples.

Results

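The genes described here are the 10 that encode the co-activators YAP and TAZ, the TEAD transcription factors and the Vestigial-like cofactors: YAP1, WWTR1 (the TAZ gene), TEAD1, TEAD2, TEAD3, TEAD4, VGLL1, VGLL2, VGLL3 and VGLL4. They were taken by symbol from 60676 gene identifiers counted in RNA sequencing of HEK293A, a subline of human embryonic kidney HEK293 cells that attaches firmly and grows flat. One group of 3 libraries came from cells given the DMSO vehicle and the other group of 3 from cells given 20 nM VT01454, a small molecule that the labels give only as a code, each for 2 h. All 6 samples are of 1 cell line with no genetic change named in the labels, and nothing in the labels ties the 3 libraries of a group to separate cultures. The p-values below therefore reflect the spread between libraries, part or all of which may be technical. The series sets the compound in a study of phosphatidylinositol transfer proteins, phosphoinositides and the Hippo pathway.

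YAP and TAZ are paralogous co-activators that do not bind DNA themselves. When the Hippo kinases LATS1 and LATS2 phosphorylate them they are held in the cytoplasm or degraded, and otherwise they enter the nucleus and act mainly through TEAD proteins, which bind DNA by their TEA domain. VGLL proteins bind TEADs at a surface that overlaps the YAP and TAZ site, and VGLL4 is known as a competitor that restrains YAP-dependent transcription. Since this control acts on the proteins, the transcript levels below describe the supply of each mRNA and not the activity of its product.

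Libraries held 19126039 to 28880374 counts, and 1 count made 0.0351 to 0.0522 CPM, which is the count after scaling of each TMM-adjusted library total to 1e+06. The 3 compound libraries were close to one another, with a chi-square per degree of freedom of 2.05 to 2.79 between them. The vehicle libraries stood 7.81 to 19.9 apart, most of all libraries 2 and 3. Pairs of a vehicle and a compound library stood 7.53 to 18.1 apart, so the spread within vehicle was as large as the distance between the groups. Of 6 markers listed for the HEK293 line, 5 averaged at least 1 CPM, among them KRT8 at 943 and NEFL at 679 CPM. The kidney factor gene PAX2 averaged 0.469 CPM. NEFM averaged 3.12 CPM but had 0.369 CPM in vehicle library 3 and 0.140 in compound library 1, against 3.74 to 6.58 in the others. The 3 leukocyte markers were at 0, and the 3 endothelial markers summed to 0.221 to 0.490 CPM. The 4 fibroblast markers summed to 20.2 to 31.9 CPM in vehicle and 19.6 to 28.1 CPM with compound, mostly COL1A1.

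Promoter windows of the co-activator genes are shown because the TEAD family binds the letters CATTCC, and a gene of the family could carry them at its own start. The RefSeq table (GRCh38.p14) held 14 windows of 250 bases before to 50 after a start, for 8 of the 10 genes; TEAD1 and TEAD4 had no entry. The 250 bases before the start of YAP1 and before both listed starts of WWTR1 follow, with those of VGLL1, 5′ to 3′ on the gene's strand, and capitals mark CATTCC or its reverse complement.
YAP1, chr11:102110197-102110446, plus strand: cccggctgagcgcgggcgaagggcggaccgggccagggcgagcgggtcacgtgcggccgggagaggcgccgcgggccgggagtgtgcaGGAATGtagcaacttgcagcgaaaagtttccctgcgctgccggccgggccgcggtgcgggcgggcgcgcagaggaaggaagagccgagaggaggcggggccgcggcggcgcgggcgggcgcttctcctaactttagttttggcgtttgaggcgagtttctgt
WWTR1 first start, chr3:149703274-149703523, minus strand: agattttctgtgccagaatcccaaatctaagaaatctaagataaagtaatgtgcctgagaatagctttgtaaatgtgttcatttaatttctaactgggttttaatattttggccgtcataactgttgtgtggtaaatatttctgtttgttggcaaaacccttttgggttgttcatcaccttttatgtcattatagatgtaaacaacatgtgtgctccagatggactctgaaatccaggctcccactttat
WWTR1 second start, chr3:149658026-149658275, minus strand: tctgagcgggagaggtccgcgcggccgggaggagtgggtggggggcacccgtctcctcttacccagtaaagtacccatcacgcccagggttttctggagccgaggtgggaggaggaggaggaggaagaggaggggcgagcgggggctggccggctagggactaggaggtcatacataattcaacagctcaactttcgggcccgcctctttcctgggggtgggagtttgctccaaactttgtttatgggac
VGLL1, chrX:136531965-136532214, plus strand: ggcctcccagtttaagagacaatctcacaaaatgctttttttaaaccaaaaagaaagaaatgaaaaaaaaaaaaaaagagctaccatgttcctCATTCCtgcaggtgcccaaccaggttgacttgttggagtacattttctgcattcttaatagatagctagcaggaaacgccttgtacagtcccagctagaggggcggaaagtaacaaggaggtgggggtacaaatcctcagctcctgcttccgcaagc

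CATTCC was searched on both strands of the whole 300-base window, where 14% of all 35116 promoter windows in the table hold it. It occurred in 2 of the 14 windows of the family. In YAP1 it lay on the minus strand, 162 to 157 bases before the start, and in VGLL1 on the plus strand, 157 to 152 bases before it. Neither TGANTCA, the AP-1 letters (7.71% of all windows), nor GTGGGCG, a core of the EGR site (9.52%), occurred in any of the 14 windows. The YAP1 window was 70.7% G or C with 40 CpG pairs. The WWTR1 windows differed from each other, with 37% G or C and 1 CpG pair at the first start and 63% and 18 CpG pairs at the second. A match describes the letters alone and is not evidence of binding.

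In vehicle-treated cells TEAD4 had the highest transcript level of the family per unit length, followed by TEAD1 and YAP1. Levels between genes are given as RPKM, which is CPM per kb of the union of a gene's annotated exons in GENCODE 29. TEAD4 (ENSG00000197905, chromosome 12, 2959330 to 3040673, plus strand) stood at 31.8, 31.6 and 28.3 RPKM in vehicle libraries 1, 2 and 3, above 91.0% of protein-coding genes with any count. TEAD1 (ENSG00000187079, chromosome 11, 12674591 to 12944483, plus strand) stood at 16.1, 13.5 and 19.3 RPKM. YAP1 (ENSG00000137693, chromosome 11, 102110461 to 102233423, plus strand) stood at 15.9, 14.6 and 16.9 RPKM. The ranges of TEAD1 and YAP1 overlapped, so that their order is not set beyond the spread, while TEAD4 lay above both in every library.

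TEAD2 and WWTR1 formed the next level. TEAD2 (ENSG00000074219, chromosome 19, 49340595 to 49362457, minus strand) had 8.91, 9.42 and 8.81 RPKM in vehicle. WWTR1 (ENSG00000018408, chromosome 3, 149517235 to 149736714, minus strand) had 8.002, 8.11 and 9.63 RPKM, a range that overlapped that of TEAD2 with union exon lengths. With the longest coding transcript as the length, WWTR1 had 13.4 to 16.1 RPKM and TEAD2 10.8 to 11.5, and the ranges did not overlap. TEAD3 (ENSG00000007866, chromosome 6, 35473597 to 35497076, minus strand) was lower, at 5.41, 5.21 and 5.10 RPKM.

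By RPKM with union exon lengths, the VGLL genes were the lowest of the family. VGLL4 (ENSG00000144560, chromosome 3, 11556070 to 11771350, minus strand) had 2.71, 2.29 and 2.58 RPKM in vehicle, near the middle of counted protein-coding genes, 49.5% of which lay below it. VGLL3 (ENSG00000206538, chromosome 3, 86876388 to 86991119, minus strand) had 0.657, 0.513 and 0.758 RPKM. VGLL2 (ENSG00000170162, chromosome 6, 117265558 to 117273565, plus strand), a cofactor gene known from skeletal muscle, had 6, 13 and 15 counts in vehicle and 13, 27 and 16 with compound. VGLL1 (ENSG00000102243, chromosome X, 136532152 to 136556807, plus strand) had 0 counts in all 6 libraries. In any 1 library an expected 3 counts, worth 0.105 to 0.157 CPM, could still give 0 by counting error. Over the 6 libraries together, the highest level that could be missed is lower than in 1 library. The neighbours TEAD3, VGLL4, VGLL3 and VGLL2 did not overlap one another in vehicle with union exon lengths. With the longest coding transcript TEAD3 (5.21 to 5.52 RPKM) and VGLL4 (4.44 to 5.27 RPKM) did overlap. By counts without length VGLL4 (16.54 to 19.6 CPM) lay above TEAD3 (15.5 to 16.46 CPM) in vehicle.

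**Figure D1:**
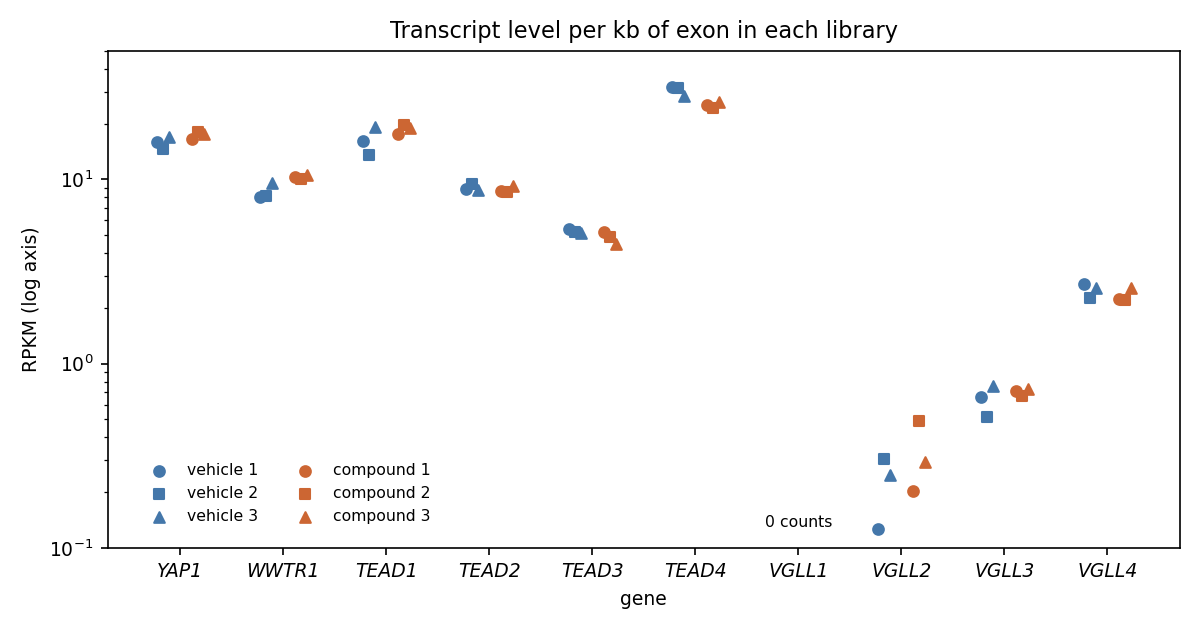
RPKM of each gene (vertical log axis) in the 3 vehicle and 3 compound libraries, 1 point per library. TEAD4 lies highest in every library and the VGLL genes lowest, and VGLL1, with 0 counts, has no points.

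Within the TEAD family, TEAD4 made up 49.99% ± 3.57 (SD, n = 3) of the summed RPKM in vehicle, TEAD1 26.6% ± 4.42, TEAD2 14.8% ± 0.841 and TEAD3 8.57% ± 0.237. This order rests on transcript length. By read counts alone TEAD1 held 59.5% of TEAD reads in vehicle and TEAD4 25.0%, because the exons of TEAD1 cover 10279 bases and those of TEAD4 only 2272. The ratio of TEAD4 to TEAD1 was 1.93 by RPKM, 2.14 with the longest coding transcript of each gene as its length, and 0.426 by counts. The isoforms in use were not measured, so the length that applies to each gene is uncertain.

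Co-activator transcripts were fewer than TEAD transcripts. YAP1 and WWTR1 together had 24.4 RPKM ± 1.97 (SD, n = 3) in vehicle, and the 4 TEAD genes 61.1 ± 1.29, a ratio of 0.399 ± 0.0285. WWTR1 stood at 0.543 ± 0.0359 of YAP1 by RPKM, at 0.502, 0.557 and 0.569 in vehicle libraries 1, 2 and 3. With the longest coding transcript as length that ratio was 0.778, since 8413 bases of WWTR1 exons shrink to 5030. VGLL4 stood at 0.104 ± 0.00848 of the co-activator sum and at 0.0413 ± 0.00271 of the TEAD sum. VGLL4 was the most abundant VGLL transcript, at 3.995 times VGLL3 by RPKM.

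**Figure D2:**
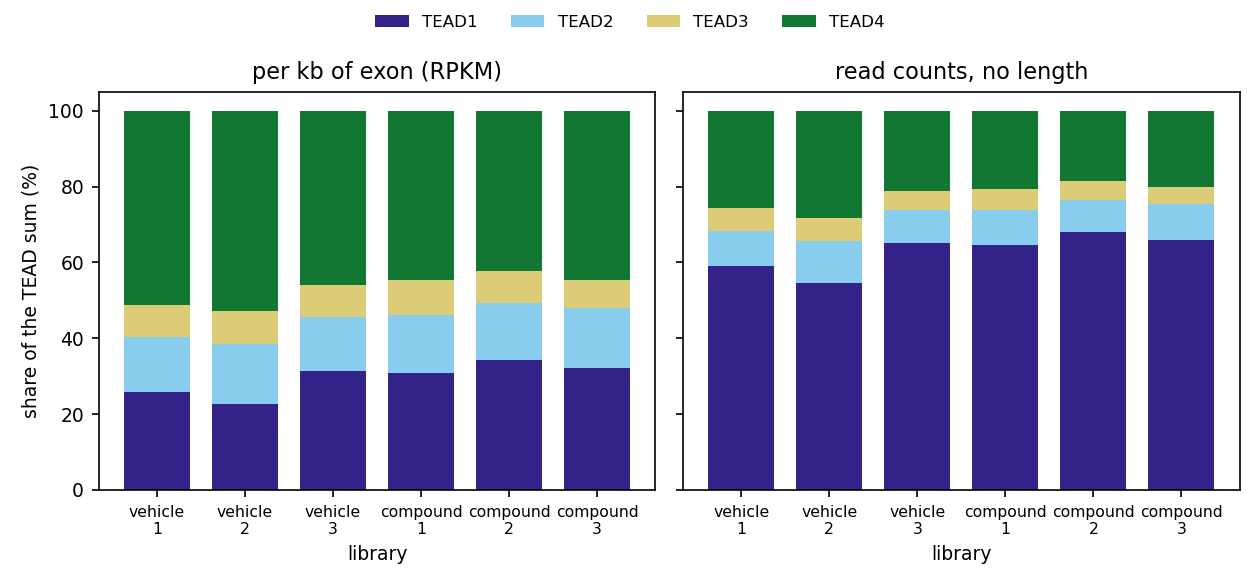
Share of each TEAD gene in the TEAD sum (vertical axis, percent) in each library, by RPKM on the left and by read counts on the right. TEAD4 takes 42.4% to 52.9% by RPKM, and TEAD1 takes the largest share by counts.

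Some of the count assignments are uncertain because the strand setting of the counting is not given in the sources used here. VGLL4 shares 1596 exonic bases with ATG7 on the opposite strand, WWTR1 shares 795 with WWTR1-AS1, and TEAD2 shares 319 with CD37. WWTR1-AS1 itself had 3 to 9 counts per library. ATG7 had 424 to 716, beside 317 to 505 for VGLL4, and whether reads of one were counted for the other was not tested. YAP1 shares 628 bases with an antisense gene that had 0 counts in every library. Leaving shared bases out of the lengths, an alternative chosen after the data were seen, gave 0.434 for co-activators over TEADs and 0.123 for VGLL4 over co-activators in vehicle.

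After 2 h with the compound no gene of the family passed the test of change. Of the 10 genes 9 were abundant enough to test, all but VGLL1, and 8 had at least 100 counts in every library. By edgeR's quasi-likelihood test, with Benjamini-Hochberg adjustment over 15577 genes, none of the 9 was called at 0.05, where 1.89% of all tested genes did. Of the 9, 2 had an unadjusted p below 0.05, which is 22.2% beside 14.4% of all tested genes. One was higher and the other lower, beside 7.82% and 6.55% of all tested genes. The same 2, WWTR1 and TEAD4, had groups that did not overlap, beside 21.1% of all tested genes (11.3% higher and 9.84% lower). DESeq2 called both of these genes and limma-voom called none, where they called 419 and 242 of all genes. The median log2 fold change of the 9 was 0.12, beside −0.0073 for all tested genes, with 5 above 0 and 4 below.

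WWTR1 was the member with the highest estimate among those well counted. Its level was 67.3, 68.3 and 81.0 CPM in vehicle libraries 1, 2 and 3 and 86.6, 84.8 and 88.5 CPM with compound. Every compound library was above every vehicle library, with vehicle library 3 nearest to them. The fold change was 1.199 (log2 0.26 ± 0.08 SE, 95% interval 0.099 to 0.42), with an adjusted p of 0.120 by edgeR. Over the alternatives the adjusted p ran from 0.00143 to 0.416. WWTR1 passed in DESeq2 (adjusted p = 0.0454), without a count filter (0.0105) and without vehicle library 3 (log2 fold change 0.35, adjusted p = 0.00143). These 3 fits called 419, 713 and 1806 of all genes, against 294 in the main fit. Without vehicle library 3 those were 7.36% of tested genes higher and 4% lower.

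YAP1 overlapped between the groups. It had 100.4, 91.7 and 106 CPM in vehicle and 104, 114 and 111 CPM with compound. Vehicle library 2 was the lowest and compound library 2 the highest, and vehicle library 3 lay above compound library 1. The log2 fold change was 0.14 ± 0.07 (95% interval −0.0095 to 0.29, edgeR adjusted p = 0.381), and it did not pass under any alternative, with adjusted p from 0.0567 to 0.729. The estimate was 0.084 without vehicle library 2. The upper bound of the interval corresponds to a 1.22-fold higher level. The ratio of WWTR1 to YAP1 was 0.592 ± 0.0337 with compound against 0.543 in vehicle, with overlapping groups (exact two-sided permutation p = 0.3, where 0.1 is the smallest possible).

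TEAD4 had the lowest estimate of the family. It stood at 72.2, 71.7 and 64.3 CPM in vehicle and at 57.6, 55.6 and 60.2 CPM with compound. All compound libraries lay below all vehicle libraries, and vehicle library 3 was again the nearest. Its level was 1.20-fold lower (log2 −0.26 ± 0.07, 95% interval −0.41 to −0.11, edgeR adjusted p = 0.0834). The call was made in DESeq2 (adjusted p = 0.0376), without a count filter (0.0370) and without vehicle library 3 (log2 fold change −0.32, adjusted p = 0.00442). Over the other alternatives adjusted p reached 0.427. Without vehicle library 3, 4% of all tested genes were called lower, against 0.616% in the main fit.

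TEAD1 varied more among vehicle libraries than any other well counted member of the TEAD family. It had 165, 139 and 198 CPM in vehicle, a coefficient of variation of 17.8% where counting alone gives 1.503%, and 180, 204 and 197 CPM with compound. Vehicle library 3 lay within the compound range and vehicle library 2 well below it. The log2 fold change of 0.21 ± 0.11 (95% interval −0.041 to 0.46) did not pass (edgeR adjusted p = 0.434). Without vehicle library 3 it was 0.35 and passed (adjusted p = 0.0140), and without vehicle library 2 it was 0.090. The fit without vehicle library 3 called 7.36% of all tested genes higher, against 1.27% in the main fit.

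TEAD2 and TEAD3 overlapped between the groups. TEAD2 had 26.6, 28.1 and 26.2 CPM in vehicle and 25.8, 25.6 and 27.6 CPM with compound, and its interval of log2 −0.19 to 0.13 spans fold changes of 0.874 to 1.09. TEAD3 had 16.5, 15.9 and 15.5 CPM in vehicle and 15.7, 14.8 and 13.5 CPM with compound, where library 3 was the lowest. Neither passed (edgeR adjusted p = 0.863 and 0.582). The TEAD3 estimate of −0.12 was −0.058 without compound library 3.

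The 3 VGLL genes that could be tested overlapped between the groups. VGLL4 had 19.6, 16.5 and 18.6 CPM in vehicle and 16.3, 16.1 and 18.7 CPM with compound, with the highest compound library inside the vehicle range. Its log2 fold change was −0.10 ± 0.10 (95% interval −0.31 to 0.10, edgeR adjusted p = 0.654). With 1 library left out the estimate ran from −0.17 (vehicle library 2 or compound library 3 left out) to −0.050 (vehicle library 1). VGLL3 had 8.35, 6.52 and 9.63 CPM in vehicle and 9.05, 8.44 and 9.28 CPM with compound, so that the compound libraries lay inside the vehicle range. Its estimate of 0.12 ± 0.14 (edgeR adjusted p = 0.726) became −0.014 without vehicle library 2. VGLL2 went from 0.283, 0.678 and 0.554 CPM to 0.456, 1.08 and 0.654 CPM, and at this depth its interval ran from log2 −0.40 to 1.44, a difference of up to 2.71-fold.

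**Figure D3:**
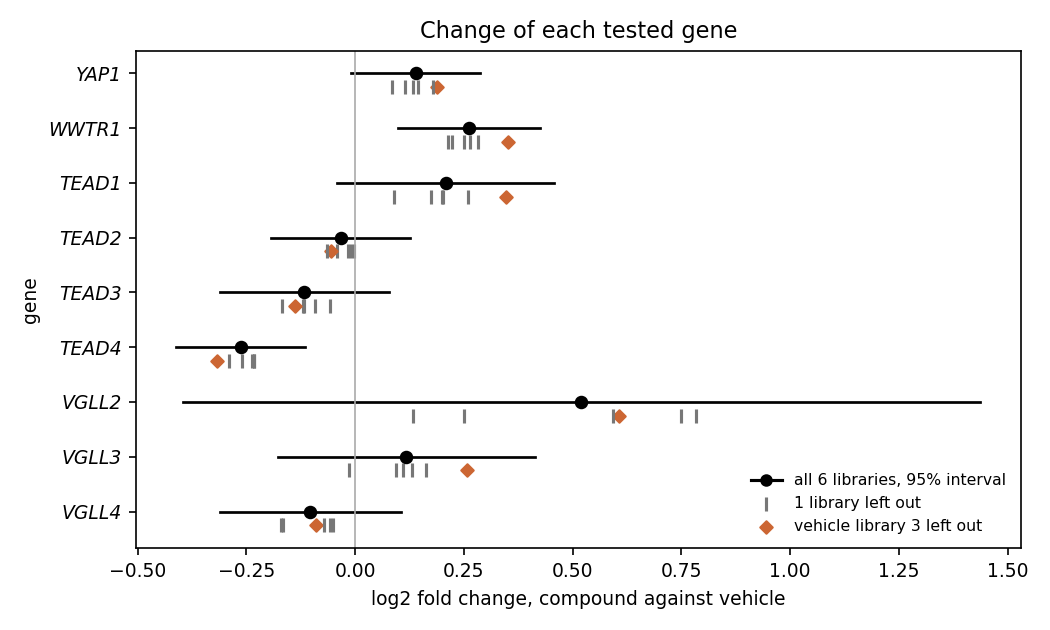
Log2 fold change of each tested gene, compound against vehicle (horizontal axis), with its 95% interval, and below it the estimates with 1 library left out. The intervals of WWTR1 and TEAD4 leave out 0, and the diamonds, without vehicle library 3, lie farthest from 0 for YAP1, WWTR1, TEAD1, TEAD4 and VGLL3.

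Over all tested genes, levels moved with gene length. In vehicle library 2 the 3092 tested genes with exons of over 8 kb had a median log2 CPM 0.14 below their mean over the 6 libraries, and the 2348 genes under 2 kb stood 0.16 above theirs. Vehicle library 3 went the other way, at 0.062 above for the longest genes and −0.051 for the shortest, and the compound libraries stood at 0.028 to 0.045 for the longest and −0.033 to −0.016 for the shortest. The median log2 fold change was accordingly −0.075 in the shortest class and 0.060 in the longest. Within the family WWTR1, TEAD1 and VGLL3, with 8413, 10279 and 12714 exonic bases, had estimates above 0, and TEAD2, TEAD3 and TEAD4, with 2272 to 3046 bases, had estimates below 0. VGLL2, with 2231 bases, and YAP1, with 6296, were above 0, and VGLL4, with 7236, was below it. In vehicle library 1 WWTR1 deviated from its mean by −0.23 and TEAD4 by 0.19. The medians of their length classes there were −0.012 and 0.013. In vehicle library 2 the 2 genes deviated by −0.21 and 0.18, beside class medians of −0.14 and 0.088. Whether length accounts for the differences of these genes was not tested. With an offset for the length trend of each library, chosen after the data were seen, WWTR1 stood at 0.23 (edgeR adjusted p = 0.0577), TEAD1 at 0.16 (0.307) and TEAD4 at −0.21 (0.0670). No member passed with that offset, while 519 of all genes did.

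**Figure D4:**
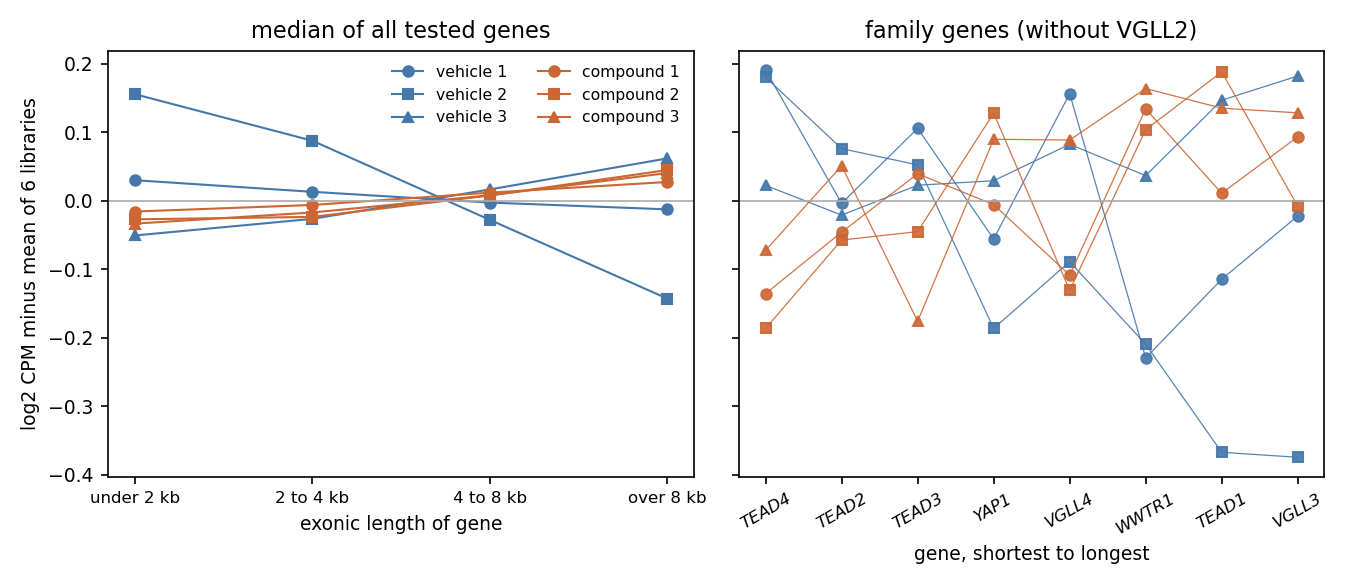
Log2 CPM of each library minus the mean of the 6 libraries (vertical axis), as the median of all tested genes in 4 classes of exonic length on the left, and for each family gene from the shortest to the longest on the right. Vehicle library 2 falls with length among all genes, and it is the lowest library for TEAD1 and VGLL3.

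The stoichiometry was compared between the groups in 12 quantities, each by an exact two-sided permutation test whose smallest possible p is 0.1. That p lies above the threshold used to call genes, so no quantity could pass, whatever the data. The lowest p after Benjamini-Hochberg adjustment of these permutation tests was 0.2. The test therefore cannot decide whether a quantity changed, and the values and the overlap of the groups are described. The ratio of co-activators to TEADs was 0.385, 0.380 and 0.432 in vehicle and 0.473, 0.488 and 0.475 with compound. All compound libraries lay above all vehicle libraries, a mean 1.201-fold difference (exact permutation p = 0.1). The co-activator sum was 24.4 RPKM ± 1.97 in vehicle and 27.7 ± 0.789 with compound, and the TEAD sum 61.1 ± 1.29 and 57.9 ± 1.31, and neither pair of groups overlapped (exact permutation p = 0.1 each). With the offset for gene length the TEAD sums did overlap (exact permutation p = 0.2). By counts without length the TEAD sum was the higher one with compound, at 293 CPM ± 11.3 against 279.8 ± 24.9, the groups overlapped (exact permutation p = 0.7), and the difference in the ratio shrank to 1.09-fold.

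TEAD4 took 49.99% of the TEAD sum in vehicle and 43.9% ± 1.34 with compound, at 51.1%, 52.9% and 46.0% against 44.7%, 42.4% and 44.6% in libraries 1, 2 and 3. The groups did not overlap (exact permutation p = 0.1). TEAD1 took 26.6% and 32.5% ± 1.72, with vehicle library 3 at 31.4% inside the compound range of 31.0% to 34.4% (exact permutation p = 0.2). After the offset for gene length the TEAD1 shares did not overlap (exact permutation p = 0.1). They were then 26.2%, 25.4% and 30.1% in vehicle and 30.4%, 33.4% and 31.4% with compound. The ratio of TEAD4 to TEAD1 was 1.98, 2.34 and 1.47 in vehicle and 1.44, 1.23 and 1.38 with compound, again with no overlap, though vehicle library 3 lay close to compound library 1. With the offset for gene length the ratio was 1.83 in vehicle and 1.41 with compound.

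VGLL4 stood at 0.113, 0.101 and 0.0971 of the co-activator sum in vehicle and at 0.0841, 0.0787 and 0.0919 with compound. The groups did not overlap, a mean 1.22-fold lower ratio (exact permutation p = 0.1). Against the TEAD sum VGLL4 stood at 0.0413 ± 0.00271 in vehicle and 0.0406 ± 0.00269 with compound, with overlapping groups (exact permutation p = 1). By counts without length this ratio was 0.0654 ± 0.00435 in vehicle and 0.0582 ± 0.00464 with compound. That is 1.12-fold lower, and the groups still overlapped (exact permutation p = 0.2).

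**Figure D5:**
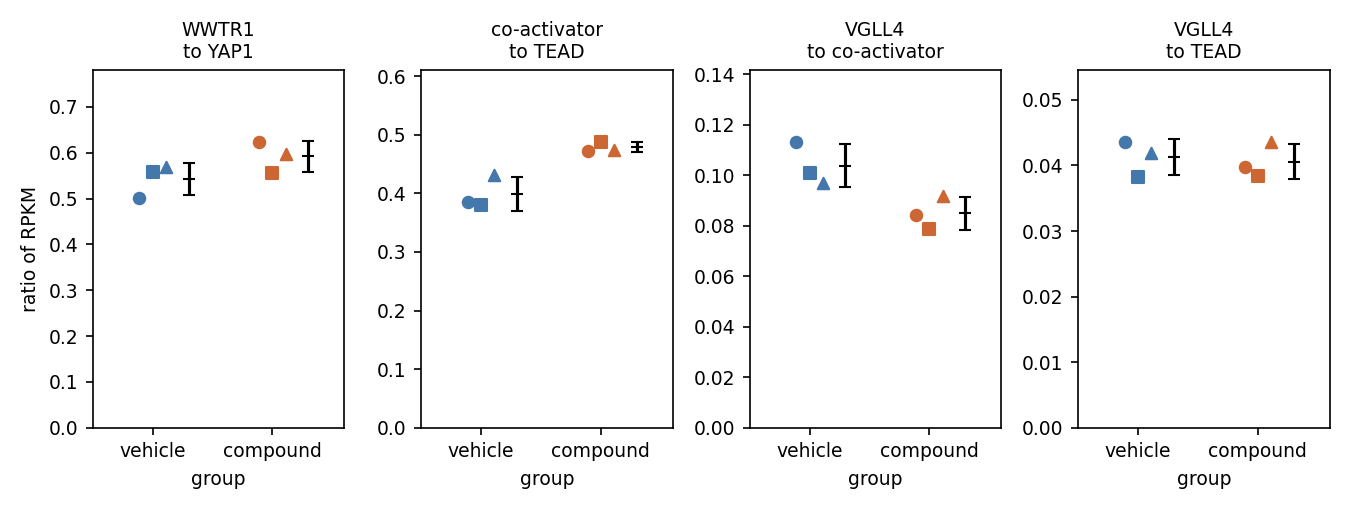
Ratios of RPKM (vertical axes from 0) in each library by group, with mean and SD beside the points. Co-activators over TEADs and VGLL4 over co-activators, which share YAP1 and WWTR1, separate the groups, and WWTR1 over YAP1 and VGLL4 over TEADs do not. The CPM of 21.1% of all tested genes separates the groups in the same way.

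By likeness over the 6 libraries, YAP1 was closest to EPHA3, FHIP2A and SWAP70, with Pearson r of 0.999, 0.994 and 0.993 among 9391 genes of at least 10 CPM. WWTR1 was closest to SEC63, RALGPS2 and TAX1BP1 (0.996, 0.996 and 0.995) and TEAD1 to LIFR, MIB1 and SLK (0.996, 0.996 and 0.994). The libraries share 2 groups and the length trend above, and the 3 best of so many genes over 6 points are high by selection, so these values describe the data only.

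Around the family, partners and regulators from lists chosen with earlier results of these data known were read from the same fit. In the Hippo kinase cassette, 0 of 21 tested genes rose and 2 fell, beside 1.27% and 0.616% of all tested genes, with a median log2 fold change of 0.10. TAOK2, a kinase upstream of the cascade, and LATS2, which phosphorylates YAP and TAZ and is also a YAP target, fell (log2 −0.39 ± 0.07 and −0.45 ± 0.09, edgeR adjusted p = 0.0102 and 0.0255). Neither gene was called when vehicle library 1 was left out, or when any compound library was, and the adjusted p then reached 0.102 and 0.189. Without vehicle library 3, 7 members of the cassette were higher and 2 lower, beside 7.36% and 4% of all genes tested in that fit. Of 17 genes for YAP and TAZ retention and turnover, 1 fell and none rose, beside 0.616% and 1.27% of all tested genes. The gene that fell was AMOTL2, an angiomotin that binds YAP in the cytoplasm (−1.64 ± 0.07, edgeR adjusted p = 3.97e-08). The median of this list was −0.0023. CSNK1D, a kinase that takes part in the degradation of YAP and TAZ, did not pass (−0.24 ± 0.06, edgeR adjusted p = 0.0805). It passed without vehicle library 3 (adjusted p = 0.00588), without a count filter (0.0419) and with DESeq2 (0.0223).

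Among 28 nuclear partners and co-regulators, 7 rose and none fell, beside 1.27% and 0.616% of all tested genes, with a median of 0.19. Of these, 5 encode AP-1 subunits, which occupy many sites beside TEADs: JUN, FOS, JUNB, FOSL1 and FOSL2, at 1.90-fold, 4.80-fold, 2.32-fold, 1.69-fold and 1.53-fold. The other 2 were IRF2BPL at 1.78-fold and IRF2BP2, whose product binds VGLL4, at 1.27-fold (edgeR adjusted p = 8.16e-05 and 0.0230). The IRF2BP2 call did not hold without vehicle library 1, nor without any of the compound libraries (adjusted p at most 0.184). IRF2BP2 went from 101 ± 7.22 to 128 ± 7.17 CPM (SD, n = 3 each), while VGLL4 did not pass. Without vehicle library 3, 11 members of the list were higher, beside 7.36% of all genes.

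Of 22 YAP/TAZ-TEAD targets, 5 fell and none rose, beside 0.616% and 1.27% of all tested genes, with a median of −0.071. CCN2, ANKRD1 and CCN1 fell by 1.14, 0.85 and 0.55 on the log2 scale, beside AMOTL2 and LATS2, which stand on 2 of the lists. Without vehicle library 3, 3 targets were higher and 6 lower, beside 7.36% and 4% of all genes.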

How the data were processed

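Gene-level read counts were deposited by the authors for 6 RNA sequencing libraries, 1 table each of 60676 gene identifiers with no normalization. HISAT2 2.2.1, an aligner, HTSeq 0.9.1, a read counter, and hg38 are listed, with no settings, per the submitters' processing notes. The annotation release, the strand setting and any read filter are not given in the sources at hand. Symbols were matched to 60357 identifiers, and GENCODE 29, on the same build, gave coordinates and exon lengths for 58503. Genes kept by filterByExpr were tested with edgeR 4.0.16 in R 4.3.3 (TMM, robust quasi-likelihood F-test, two-sided, adjusted over all tested genes, call below 0.05). The procedure was checked on simulated counts that held no length trend between libraries, so the check does not cover that trend. Standard errors are the log2 fold change over the square root of F. CPM and RPKM use TMM-scaled library sizes, and ratios were tested by exact permutation of libraries.

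Named are all 10 members, from each list the 2 smallest p-values and every called gene, and the 3 most alike genes (log2 CPM, prior count 2) of YAP1, WWTR1 and TEAD1. Members and lists were chosen with earlier results of these data known. Alternatives were DESeq2 1.42.0, limma-voom (limma 3.58.1), other scalings, filters and lengths, a replicate block and leaving out each library; offsets for gene length and lengths without shared bases were added after the data were seen. The promoter sequences are from RefSeq. Protein sequences were not used here.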

Additional observations from a re-analysis of the deposited data

How the results depend on the processing

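No member passed with DESeq2 size factors, library size alone, a 1 CPM filter, limma-voom, the replicate block or the length offset, against 2 with DESeq2, 2 without a count filter and 0 to 3 with 1 library left out. All genes called numbered 419 with DESeq2, 713 without a filter (508 higher and 205 lower) and 519 with the length offset. With 1 library left out they ran from 93 without vehicle library 1 (73 higher and 20 lower) to 1806 without vehicle library 3. In that last fit, where 3 members passed, 7.36% of all tested genes were higher and 4% lower. Without a filter the cassette, retention, nuclear and target lists had 5, 2, 12 and 7 calls; the retention list also had 2 with DESeq2 and with the offset. With 1 library left out these 4 lists ran 0 to 9, 1 to 2, 6 to 11 and 4 to 9. Signs turned for VGLL3 without vehicle library 2 (−0.014, and up to 0.26 without any other single library) and TEAD2 with the offset (0.0057).

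In vehicle, WWTR1 over YAP1 was 0.778 with the longest coding transcript and 0.725 by counts, the TEAD1 share 59.5% by counts, co-activators over TEADs 0.614 by counts and 0.434 without shared bases, and VGLL4 over co-activators 0.1499 with the longest transcript and 0.123 without shared bases. By counts the log2 change of co-activators over TEADs was 0.13. These differences follow from the lengths used. Same-numbered libraries were not treated as paired, and the labels do not say whether they are. Their deviations correlated at −0.070, 0.028 and −0.014, which cannot decide it with so few libraries. The replicate block gave 339 calls among all genes, against 294 without it, and 0 among the members. Depth limits VGLL1 and VGLL2.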
